A study of Malus domestica with 4 samples.

Results

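Among the genes that were well expressed in apple cortex before storage, 54 were at least 8-fold lower after 24 days of storage at 0.8 kPa as well as at 0.4 kPa oxygen. They were chosen by a fixed rule on the deposited estimated counts, scaled in each condition to a total of 1000000 (CPM). A gene was kept when it reached 20 CPM in T0 and when its log2 ratios 0.8ox/T0 and 0.4ox/T0, computed on CPM plus 0.5, were both -3 or lower. The rule kept 54 of the 9187 genes that reached 20 CPM in T0 (0.588%), and of 63514 genes in the tables.

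The study followed Granny Smith apples, detached fruit kept in the cold, and sequenced RNA of the fruit cortex taken as slices from the equator. The groups were the shifted sample, from fruit first held at 0.4 kPa and then moved up to 0.8 kPa oxygen; 0.8ox, from 24 days at 0.8 kPa oxygen; 0.4ox, from 24 days at 0.4 kPa oxygen; and T0, the normoxic fruit at the start, after a short cold acclimation in air. According to the methods, 3 biological replicates were sequenced per condition for T0, 0.4ox and 0.8ox, and the deposited tables merge them into 1 estimated count per condition. The labels give no day for the shifted sample. According to the methods, oxygen was raised only after the 24-day sampling, in the chamber first held at 0.4 kPa. The shifted fruit was therefore stored longer than 0.8ox, and in another chamber. All groups share the cultivar, the tissue and the cold. According to the methods, both low-oxygen atmospheres also held carbon dioxide, and each was applied in its own chamber. No normoxic sample of the same age was analysed here. Oxygen, carbon dioxide, chamber and storage time therefore cannot be told apart in any ratio to T0. In 0.8ox/0.4ox, oxygen level and chamber cannot be told apart. A gene can also be lower because fewer cells make it or because each cell holds less of its RNA, and these cannot be told apart in whole cortex.

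Plant cells short of oxygen turn from respiration to fermentation, make less protein and cell wall, and change the use of their stored acids, sugars and nitrogen. In apple, malate is the main acid and is kept in the vacuole, and carriers in the vacuolar membrane (the tonoplast) move it across that membrane. Asparagine, an amide rich in nitrogen, is made by asparagine synthase, which in Arabidopsis leaves is known for its rise in the dark and when sugar is short. Both processes are represented among the 54 genes.

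The annotation used here describes 8 of the 54 genes by their Arabidopsis counterpart, and 46 are known only by their apple identifier. This annotation covers part of the genome and is ordered by the 0.8ox/0.4ox ratio, so the described genes lean toward those that were higher in 0.8ox than in 0.4ox. Of the genes at 20 CPM or more in T0, 123 had a description. The 8 described genes are therefore not a sample of the 54, and no function is assigned here to the other 46.

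Estimated counts summed to 6471124 in 0.8ox, 5445598 in 0.4ox and 9553180 in T0. The shifted sample was counted in a separate table together with a second count of 0.8ox, with totals of 4865029 in the shifted sample and 5363827 in 0.8ox. In that table, called here the second table, the 7532 values of 0.8ox above 0 and under 1.5 counts fall on 26 distinct values, whereas the 9979 such values of the first tables are spread over 2098. The methods state that reads mapping to several places were removed. Why the tables differ was not tested. Genes whose 0.8ox count in the second table was at least 10% of that in the first are called recounted genes. Among recounted genes at 20 CPM or more in T0, the 0.8ox level of that table was at the median 1.31 times the first in CPM, so levels of the shifted sample are tested only within their own table. Each deposited count has a variance from Cuffdiff. For 51 of the 54 genes the variance in T0 could be set against the median variance of genes with neighbouring counts, and all 51 lay within 6.47% of it. In 0.8ox all 54 lay within 6.31%, and in 0.4ox within 24.4%. Such a pooled variance cannot show whether 1 library carried a level. No label or file gives markers of other cell types for these identifiers, so no check of the tissue by markers was made.

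Together the 54 genes took 0.0862% of all counts in 0.8ox and 0.0470% in 0.4ox, against 1.10% in T0. Their summed level was 862 CPM in 0.8ox and 470 CPM in 0.4ox, against 11004 CPM in T0. The median gene was at 3.75 CPM in 0.8ox, at 2.87 CPM in 0.4ox and at 71.6 CPM in T0, while the median of all genes at 20 CPM or more in T0 was 43.7 CPM, 43.2 CPM and 46.1 CPM in the same conditions. These falls were set by the rule and are given as a description, with no test.

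**Figure D1:**
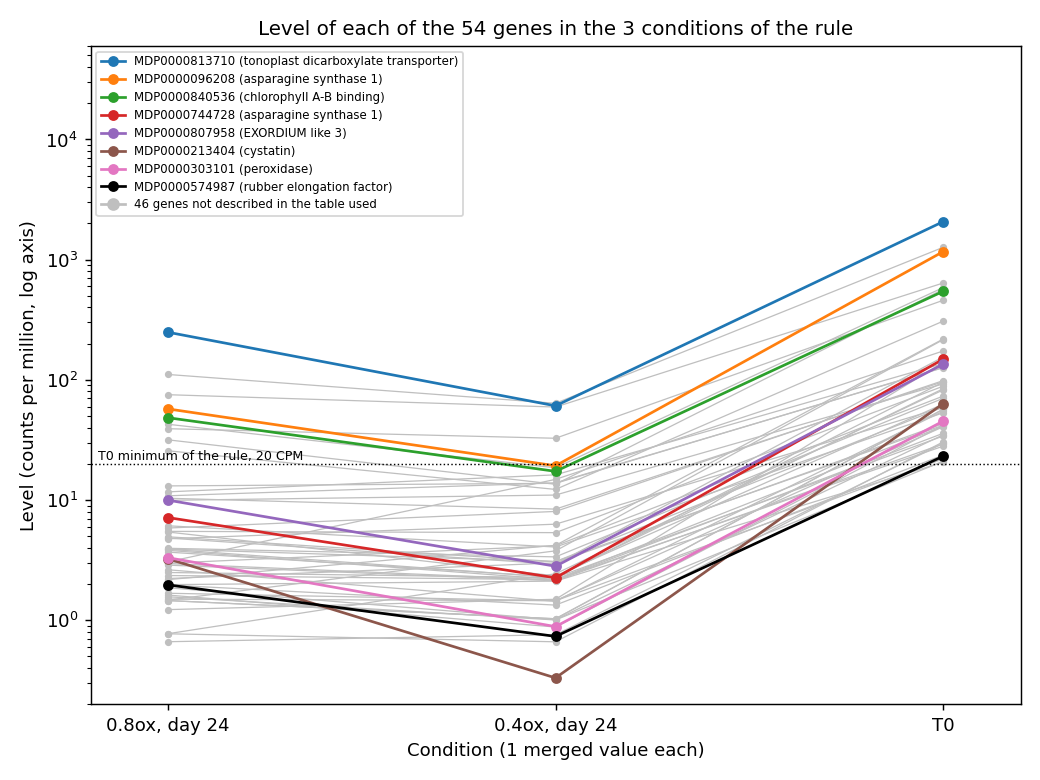
Level of each of the 54 genes in CPM (log axis) in 0.8ox, 0.4ox and T0, with 1 line per gene, the 8 described genes in colour or black and the others in grey; the dotted line marks the 20 CPM that the rule required in T0. Levels ran from 0.663 to 249 CPM in 0.8ox and from 0.331 to 63.8 CPM in 0.4ox, against 20.6 to 2068 CPM in T0.

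The level was concentrated in few genes. In T0, 3 genes were at 1000 CPM or more, 7 at 500 CPM or more and 19 at 100 CPM or more. The 6 highest genes held 57.1% of the summed T0 level. The log2 ratios to T0 had a median of -3.64 for 0.8ox and -4.28 for 0.4ox, against -0.10 and -0.15 over all genes at 20 CPM or more in T0. In 0.8ox 21 of the 54 genes were at a log2 ratio of -4 or lower and 5 were at -5 or lower, while in 0.4ox 30 and 14 genes were past the same values. At both oxygen levels together, 18 genes reached -4 and 3 reached -5.

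The ratio 0.4ox/T0 alone was -3 or lower in 139 of the 9187 genes (1.51%), and the ratio 0.8ox/T0 alone in 77 (0.838%). The limits cut through a continuous range. Just inside the limit on 0.8ox/T0 lay MDP0000804741 at -3.02 and MDP0000813710 at -3.05, and just outside it lay MDP0000243380 at -2.996 and MDP0000303799 at -2.97. On 0.4ox/T0, MDP0000289917 at -3.01 and MDP0000091547 at -3.01 were kept, whereas MDP0000324718 at -2.99 and MDP0000301092 at -2.97 were not. At the T0 minimum, MDP0000289917 at 20.6 CPM and MDP0000146992 at 21.0 CPM were kept, and MDP0000313329 at 19.97 CPM and MDP0000188054 at 19.8 CPM were left out.

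**Figure D2:**
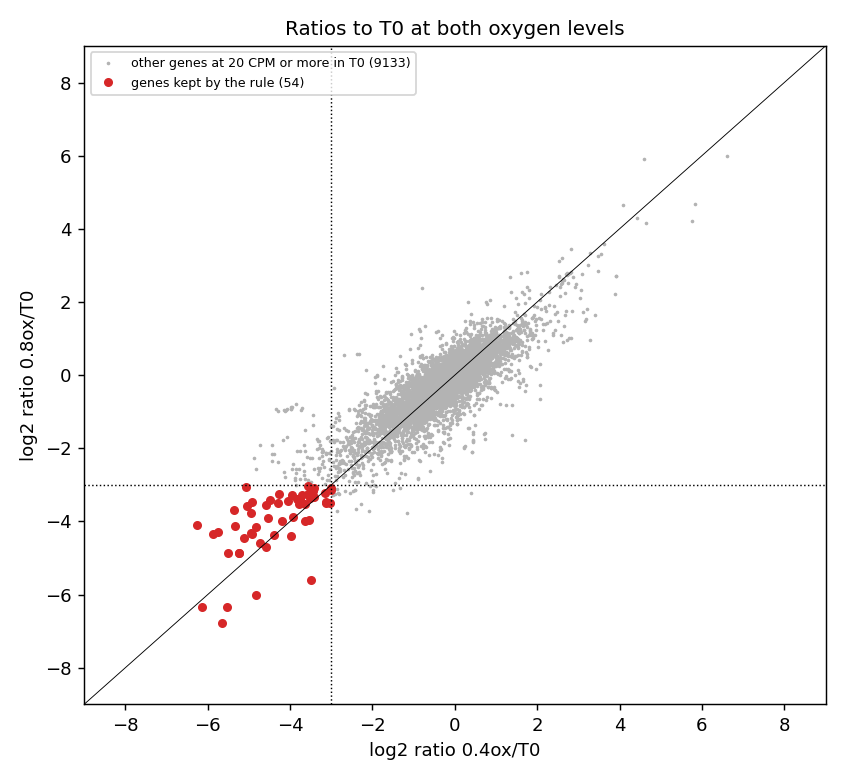
Log2 ratio 0.8ox/T0 (vertical) against log2 ratio 0.4ox/T0 (horizontal) for the 9187 genes at 20 CPM or more in T0; red points are the 54 genes kept by the rule, dotted lines mark -3 on both axes and the solid line marks equal ratios. The 54 genes fill the lower left corner, with medians of -3.64 on the vertical and -4.28 on the horizontal axis, and 39 of them lie above the line of equal ratios.

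The most abundant gene before storage was MDP0000813710, described as a tonoplast dicarboxylate transporter (counterpart AT5G47560), a carrier that moves malate across the vacuolar membrane. It was at 249 CPM in 0.8ox and at 60.8 CPM in 0.4ox, against 2068 CPM in T0. It thus kept 12.0% of its T0 level in 0.8ox and 2.94% in 0.4ox. The log2 ratios were -3.05 ± 0.22 for 0.8ox/T0 and -5.08 ± 0.24 for 0.4ox/T0, where the error, here and below, is the SE from the deposited variances.

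Of the 6 other apple genes that the annotation pairs with the same carrier, none was kept by the rule, and 4 reached 20 CPM in T0. In 0.8ox 5 of the 6 were above their T0 level, but 2 of these 5, MDP0000271175 and MDP0000307325, were not recounted genes, at 0.162% and 3.90%. The gene MDP0000147335 was at 129 CPM in 0.8ox and 30.6 CPM in 0.4ox, against 50.8 CPM in T0. By contrast MDP0000255230 was at 16.9 CPM in 0.8ox and 5.49 CPM in 0.4ox, against 28.4 CPM in T0. All 6 were below T0 in 0.4ox. These copies were annotated here because of their place in a list ordered by the 0.8ox/0.4ox ratio, and their levels are uncertain where the counting could split reads between close copies.

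Glutamine-dependent asparagine synthase 1 (counterpart AT3G47340) was represented by MDP0000096208 and MDP0000744728. The gene MDP0000096208 was at 57.3 CPM in 0.8ox and 19.3 CPM in 0.4ox, against 1164 CPM in T0. Its log2 ratios were -4.33 ± 0.20 for 0.8ox/T0 and -5.88 ± 0.24 for 0.4ox/T0, a 20.2-fold and a 58.9-fold lower level. The gene MDP0000744728 was at 7.15 CPM in 0.8ox and 2.25 CPM in 0.4ox, against 148 CPM in T0. Its ratios of -4.28 and -5.76 were close to those of MDP0000096208, but the second table gave it 0.826% of its 0.8ox count, so its level is uncertain. A further copy, MDP0000125407, missed the T0 minimum with 0.429 CPM in 0.8ox and 0.173 CPM in 0.4ox, against 12.3 CPM in T0. Its level is uncertain too, with 2.78 counts in 0.8ox and 0.940 in 0.4ox, and 0 for 0.8ox in the second table. The fourth identifier with this description, MDP0000568139, was under 1 count in every condition of these tables.

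The other described genes stand for light, the cell wall, protein breakdown and peroxidation. The gene MDP0000840536 is annotated as a chlorophyll A-B binding family protein (AT3G22840), known in Arabidopsis as the early light-inducible protein ELIP1, which protects the photosynthetic membranes in strong light. It was at 48.4 CPM in 0.8ox and 17.3 CPM in 0.4ox, against 544 CPM in T0. The gene MDP0000807958, EXORDIUM like 3 (AT5G51550), belongs to a family of secreted proteins linked to cell growth. It was at 9.98 CPM in 0.8ox and 2.81 CPM in 0.4ox, against 135 CPM in T0. Both lost more of their level at the lower oxygen, with log2 ratios of -3.48 and -3.69 for 0.8ox/T0, against -4.93 and -5.35 for 0.4ox/T0. The remaining EXORDIUM like 3 identifiers, MDP0000530198 and MDP0000778016, had identical counts and were at 0 in the second table, and at 4.43 CPM in 0.8ox and 1.79 CPM in 0.4ox, against 20.8 CPM in T0, they missed the limit on 0.8ox/T0.

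A cystatin, MDP0000213404 (AT5G47550), a member of the inhibitors of cysteine proteases, had the lowest level of all 54 genes in 0.4ox. It was at 3.24 CPM in 0.8ox and 0.331 CPM in 0.4ox, against 63.3 CPM in T0. Its count in 0.4ox was 1.80, and set against a floor of 3 counts its T0 level was 115-fold higher. Its log2 ratio 0.4ox/T0 was -6.26 ± 1.08, so the size of its fall is imprecise. The peroxidase MDP0000303101 (AT2G37130), of the enzymes that oxidise substrates with hydrogen peroxide, was at 3.31 CPM in 0.8ox and 0.885 CPM in 0.4ox, against 45.3 CPM in T0. The gene MDP0000574987 (AT2G47780), described as a rubber elongation factor protein, was at 1.97 CPM in 0.8ox and 0.734 CPM in 0.4ox, against 23.1 CPM in T0. These 3 genes had under 25 counts at both oxygen levels, which limits their ratios between the oxygen levels.

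Several of the most abundant genes have no description. The gene MDP0000088633 was at 111 CPM in 0.8ox and 63.8 CPM in 0.4ox, against 1265 CPM in T0. The gene MDP0000326288 was at 75.2 CPM in 0.8ox and 59.4 CPM in 0.4ox, against 639 CPM in T0, so that it kept 11.8% and 9.30% of its T0 level. The gene MDP0000074782 was at 42.7 CPM in 0.8ox and 18.6 CPM in 0.4ox, against 585 CPM in T0. The gene MDP0000568045 was at 31.7 CPM in 0.8ox and 13.5 CPM in 0.4ox, against 566 CPM in T0. The loss was deepest in other, less abundant genes. The gene MDP0000250546, chosen after its values were seen, was at 1.47 CPM in 0.8ox and 3.78 CPM in 0.4ox, against 216 CPM in T0, and its log2 ratio of -6.78 ± 0.48 was the lowest of the 54 in 0.8ox.

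Not all 54 identifiers are separate measurements. The genes MDP0000377710 and MDP0000481065 had identical counts in every condition, at 1.46 CPM in 0.8ox and 1.03 CPM in 0.4ox, against 56.8 CPM in T0, so that 53 distinct sets of counts remain. Of the 54 genes, 6 had in the second table under 10% of their 0.8ox count and are not recounted genes. These are MDP0000173050, MDP0000744728, MDP0000233154, MDP0000377710, MDP0000481065 and MDP0000146992. Another 8 genes had between 10% and 50%. Among genes with at least 10 counts in 0.8ox, 4 of 46 of the 54 genes and 13.5% of all genes at 20 CPM or more in T0 were not recounted.

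Lists made from the descriptions by keyword cover few genes here. Of 18 transport genes at 20 CPM or more in T0, 1 was kept by the rule, the malate carrier, while 6 were at -3 or lower in 0.4ox. Of 8 cell wall genes, 1 was kept and 5 were past the limit in 0.4ox. These 5 include MDP0000530198 and MDP0000778016, which had identical counts and were not recounted genes. Of 6 genes of carbon and nitrogen supply, 2 were kept, both asparagine synthases, and 4 were past the limit in 0.4ox. Of these synthases, MDP0000744728 was not a recounted gene. Of 5 genes of light and photosynthesis, 1 was kept, and all 5 were past the limit in 0.4ox. The list of oxygenases and peroxidases had 1 such gene, which was kept. Among 3 genes of abscisic acid and water stress and 1 transcription factor none was kept, and no jasmonate gene reached 20 CPM in T0. Of the 8 RT-qPCR genes of the study at 20 CPM or more in T0, none was at -3 or lower at either oxygen level. The median log2 ratio of these 8 was 0.89 for 0.8ox/T0 and 1.34 for 0.4ox/T0. All lists except the last share the lean toward a high 0.8ox/0.4ox ratio. According to the paper, light-harvesting genes were over-represented among those higher at the lower of the oxygen levels. Some cell wall genes were also higher there, by the same account. The counts of these lists are therefore not read as a fall of a whole class. Over all 9187 genes at 20 CPM or more in T0, 0.588% were kept and 1.51% were past the limit in 0.4ox.

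The oxygen levels were then set beside each other. The rule used both of these counts and limited both, so the ratios 0.8ox/0.4ox of the 54 genes are a description, with no test. By CPM, 39 of the 54 genes (72.2%) were higher in 0.8ox than in 0.4ox and 15 were lower, and of all genes at 20 CPM or more in T0 56.3% were higher. A ratio was computed for the 48 genes that reached 10 counts in either oxygen level, and its median was 0.50. In a fit over all 26934 genes with enough counts, 1.54% of genes were higher and 2.42% were lower at an adjusted p under 0.001, and 7 of the 54 genes were past that threshold upward and 1 downward. Without scaling by the totals, 68.0% of all genes past the threshold were higher, against 38.8% with it, and the 54 genes then had 9 upward and 1 downward. Nothing is read from these counts, since the same values chose the 54 genes.

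Among the genes with the most counts, the malate carrier MDP0000813710 stood 4.09-fold above its 0.4ox level in 0.8ox (log2 ratio 2.03 ± 0.20). For EXORDIUM like 3, MDP0000807958, the log2 ratio was 1.83 ± 0.41. Asparagine synthase MDP0000096208 had a log2 ratio of 1.57 ± 0.23, and the ELIP1 counterpart MDP0000840536 one of 1.48 ± 0.24. All 8 described genes had ratios above 0, as the order of the annotation favours. Without a description, MDP0000568045, MDP0000074782 and MDP0000173050 were at log2 ratios of 1.23, 1.20 and 1.07. The level of MDP0000173050 is uncertain, as the second table gave it 0.316% of its 0.8ox count.

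The lowest log2 ratio 0.8ox/0.4ox was that of MDP0000652676, which has no description, at -2.28 ± 0.38. It was at 3.06 CPM in 0.8ox and 14.9 CPM in 0.4ox, against 174 CPM in T0, and its counts were 19.8 in 0.8ox and 80.9 in 0.4ox. The highest was that of the cystatin MDP0000213404, at 3.29 ± 1.12, from its 1.80 counts in 0.4ox. The SE had a median of 0.45 over the 48 genes and reached 1.12, so that the ratios of genes with few counts are imprecise.

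**Figure D3:**
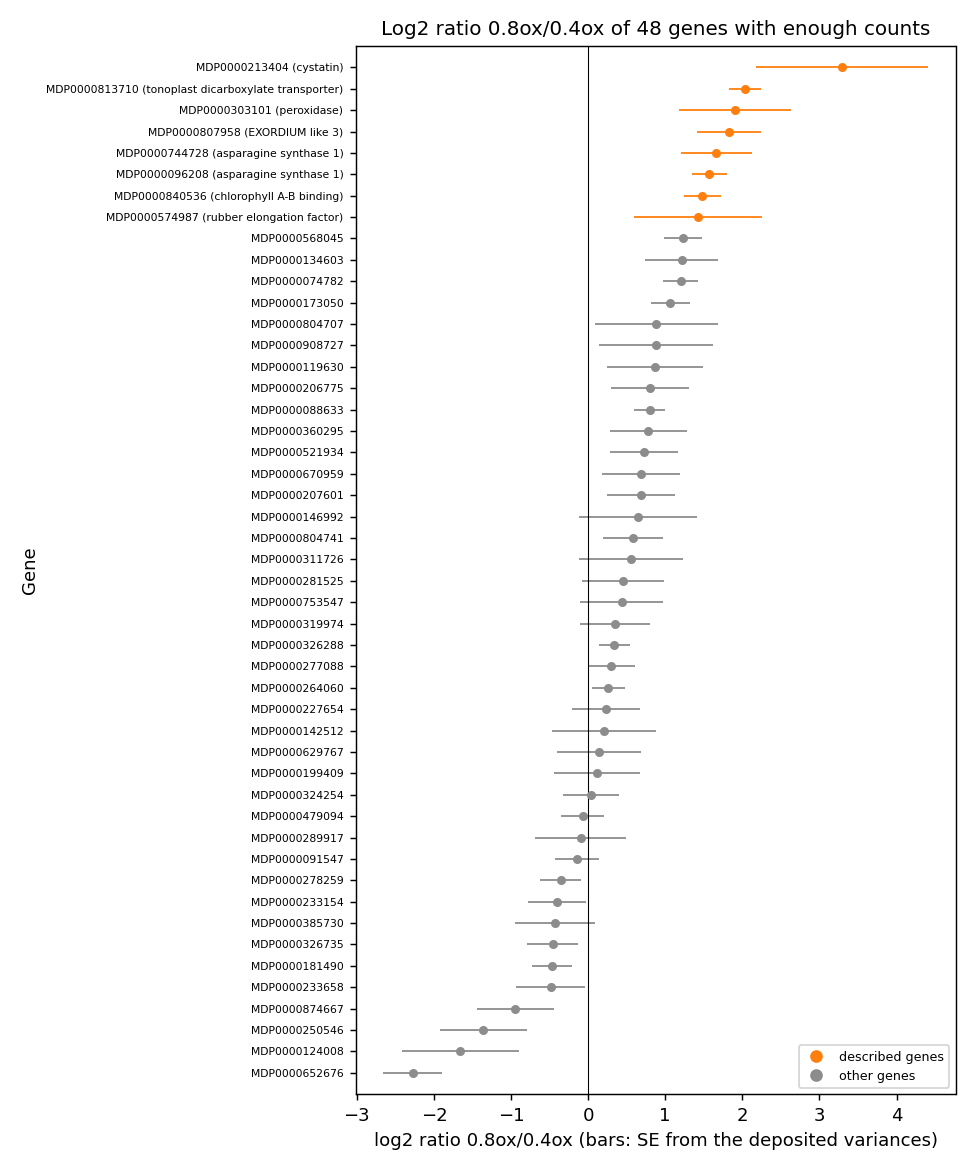
Log2 ratio 0.8ox/0.4ox of the 48 genes that reached 10 counts in either oxygen level, sorted from the highest at the top; bars are 1 SE from the deposited variances, orange marks the described genes and grey the others. Ratios run from -2.28 to 3.29 with a median of 0.50, and all 8 described genes lie above 0.

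The shifted sample was not used by the rule. Its comparison with 0.8ox sets these genes beside fruit kept at 0.8 kPa throughout, but sampled earlier and from another chamber. The 0.8ox sample was used by the rule, in its other count, and the genes were kept for being low in it. As 0.8ox is the denominator, this choice favours ratios shifted/0.8ox above 0. The p-values of the 54 genes in this comparison take no account of that choice. With at least 10 counts in either condition of this table, 38 of the 54 genes could be tested. None was called higher in the shifted sample and 4 were called lower (adjusted p under 0.001, ratio over its SE, normal, two-sided, Benjamini-Hochberg over 20669 genes), while over all tested genes 1.54% were higher and 0.416% were lower. At an unadjusted p under 0.05, 4 of the 38 were higher and 10 were lower, and the exact test of edgeR likewise called 0 higher and 4 lower. By the ratio over its SE, 1.13% of the 8196 tested genes at 20 CPM or more in T0 were called higher and 0.744% lower. Their median log2 ratio shifted/0.8ox was 0.04. The median was -0.36 over the 38 genes, against 0.15 over all tested genes. Subtracting that 0.15 from every ratio brought the median to 0, and the share of higher calls among all calls was then 64.5%, against 78.8% without it. Among the 38 genes, 0 were then higher and 6 were lower.

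EXORDIUM like 3, MDP0000807958, was at 3.41 CPM in the shifted sample and 13.9 CPM in 0.8ox (log2 ratio -2.02 ± 0.41, adjusted p = 6.82e-05). The gene MDP0000264060, with no description, was at 15.0 CPM in the shifted sample and 55.9 CPM in 0.8ox (-1.90 ± 0.26, adjusted p = 1.89e-10). Asparagine synthase MDP0000096208 was at 23.1 CPM in the shifted sample and 70.3 CPM in 0.8ox (-1.61 ± 0.25, adjusted p = 1.45e-08). The gene MDP0000074782 was at 8.65 CPM in the shifted sample and 24.3 CPM in 0.8ox (-1.49 ± 0.29, adjusted p = 3.48e-05), where its 0.8ox count was 47.1% of that in the first tables. These 4 genes were thus 2.81-fold to 4.06-fold lower in the shifted sample than in 0.8ox. Oxygen history, storage time and chamber cannot be told apart in this ratio.

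The comparisons shifted/0.8ox and 0.8ox/0.4ox share the 0.8ox sample, so their ratios are set side by side only. For MDP0000096208 they were -1.61 and 1.57, for MDP0000807958 -2.02 and 1.83, for MDP0000074782 -1.49 and 1.20, and for MDP0000264060 -1.90 and 0.26. The malate carrier MDP0000813710 was at 199 CPM in the shifted sample and 355 CPM in 0.8ox, with a log2 ratio shifted/0.8ox of -0.84 ± 0.22 that missed the threshold (adjusted p = 0.00397) beside its 2.03 in 0.8ox/0.4ox. The ELIP1 counterpart MDP0000840536 was at 52.0 CPM in the shifted sample and 68.6 CPM in 0.8ox, with a ratio of -0.40 ± 0.23 (adjusted p = 0.408) beside 1.48. The cystatin MDP0000213404 was at 0.829 CPM in the shifted sample and 4.63 CPM in 0.8ox, and its ratio of -2.48 ± 0.86 was not called (adjusted p = 0.0634) at 4.03 and 24.8 counts.

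At the other end, 15 of the 34 genes not called had ratios above 0. The highest was 1.68 ± 0.69 for MDP0000124008, from 17.2 counts in the shifted sample and 5.95 counts in 0.8ox (adjusted p = 0.159). With more counts, MDP0000278259 was at 27.0 CPM in the shifted sample and 15.5 CPM in 0.8ox. Its log2 ratio was 0.80 ± 0.27 (adjusted p = 0.0485 by the ratio over its SE). It was the 1 gene higher at an adjusted p under 0.05, where 6 were lower. The gene MDP0000088633 was at 169 CPM in the shifted sample and 156 CPM in 0.8ox, a log2 ratio of 0.12 ± 0.22. The gene MDP0000326288 was at 118 CPM in the shifted sample and 102 CPM in 0.8ox, a log2 ratio of 0.22 ± 0.22. The differences of MDP0000088633 and MDP0000326288 were within about 1 SE. Of the wider keyword lists, which lean toward genes high in 0.8ox, 5 of 6 tested cell wall genes, 2 of 16 transport genes, 1 of 5 genes of carbon and nitrogen supply and 1 of 4 genes of light and photosynthesis were called lower in the shifted sample, and none was called higher. Over all tested genes 0.416% were lower and 1.54% higher, and since 0.8ox is the denominator of this ratio nothing is read from the counts of these lists. The remaining 16 of the 54 genes could not be tested after the shift, and 4 of them, none of them recounted genes, were at 0 counts in both columns of that table.

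**Figure D4:**
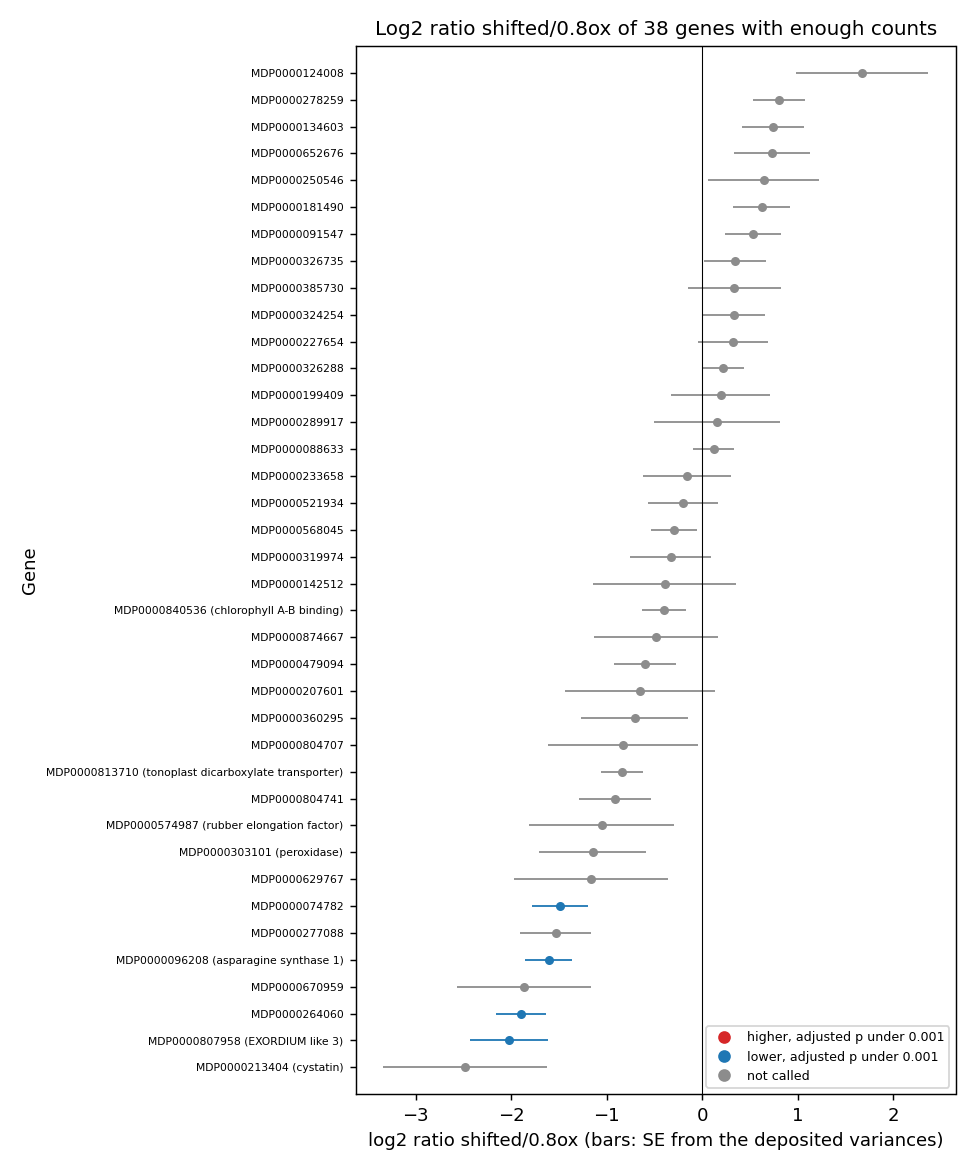
Log2 ratio shifted/0.8ox of the 38 genes tested in the table with the shifted sample, sorted from the highest at the top; bars are 1 SE from the deposited variances, blue marks the 4 genes called lower in the shifted sample and grey the 34 not called. No gene was called higher, and ratios run from -2.48 to 1.68.

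The shifted sample was also set against T0. Since the tables were counted separately and the rule used the T0 level, these values are a description with no test. The 54 genes were kept for a T0 level far above that of both stored samples, which favours low ratios to T0. Their difference from all genes in this ratio is therefore set in part by the rule. Set directly against T0, 48 of the 54 genes were at a log2 ratio of -3 or lower in the shifted sample, as were 15% of all genes at 20 CPM or more in T0. Both counts include genes that were not recounted, whose level in the second table says nothing of a fall. Of the 48 recounted genes 42 were as low, where 2.81% of all 7944 recounted genes at 20 CPM or more in T0 were, and the median ratio was -4.23, against 0.16 over those 7944. The 6 recounted genes above the limit were MDP0000088633, MDP0000326288, MDP0000278259, MDP0000091547, MDP0000134603 and MDP0000199409, and the highest ratio of the 48 was -2.20, for MDP0000278259. Multiplying each T0 level by the share of the 0.8ox count found in the second table, at most 1, left 37 of the 54 genes at -3 or lower. Set directly against T0, the malate carrier MDP0000813710 was at 9.61% in the shifted sample. Asparagine synthase MDP0000096208 was at 1.98% and the ELIP1 counterpart MDP0000840536 at 9.55%. These values also carry the difference between the tables. A summed ratio avoids this by adding log2 0.8ox/T0 of the first tables to log2 shifted/0.8ox of the second. Both kept the rule's addition to CPM. The same genes were then at 6.75%, 1.65% and 6.82%. Of the 48 recounted genes 42 were again at -3 or lower. MDP0000181490 and MDP0000289917 were now above the limit, and MDP0000088633 and MDP0000199409 were not.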

How the data were processed

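RNA of Granny Smith cortex was sequenced as 50 bp single reads. According to the authors, TopHat2 with Bowtie2 placed the reads on apple genome version 1.0, and Cuffdiff counted them. What was deposited is an estimated count for each gene and condition, merged by the authors from 3 libraries (a number not given for the shifted sample), with the variance modelled for each count. Fold changes and p-values of the authors' own comparisons, listed beside the annotation, were not used.

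Counts were scaled to CPM by the column total. The rule added 0.5 CPM, required 20 CPM in T0 and log2 ratios of -3 or lower. Ratios 0.8ox/0.4ox and shifted/0.8ox were divided by their SE from the undivided deposited variances and compared with the normal distribution, two-sided, with Benjamini-Hochberg adjustment over all genes that had counts above 0 in both conditions and at least 10 in either; the threshold was 0.001. For 0.8ox/0.4ox, whose counts the rule used, this is a description of the 54 genes and no test. Intervals cover the modelled spread only. A fold against 3 counts or fewer was computed against 3 counts. Genes with under 10% of their 0.8ox count in the table of the shifted sample were named as not recounted there. Python 3.11.15, pandas 2.3.3, scipy 1.17.1 and edgeR 4.0.16 were used, and the tests were tried on simulated data. The simulated counts were drawn with the same modelled variances that the tests use. They therefore cannot show how the tests handle the real spread between libraries. Alternatives covered scaling, pseudocount, minimum count, variance, threshold and the exact test of edgeR. The restriction of the calls to recounted genes and the summed ratio after the shift were chosen after seeing the data.

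The 54 genes and the keyword lists were chosen with earlier results of these data known. Named genes were the 6 highest in T0, the described ones, the largest called changes, those beside each limit and those with identical counts. Descriptions come from the study's annotation, in part. No sequences were used here.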

Additional observations from a re-analysis of the deposited data

How the results depend on the processing

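The number of genes kept by the rule was 144 with no scaling, 234 at a fold limit of -2 and 18 at a limit of -4, against 54; all 54 were in the sets of 144 and 234. Under the other settings it ranged from 36 to 81. With the variance divided by 3, the genes past the threshold in 0.8ox/0.4ox (a description, since the rule used these counts) came to 15 instead of 8, and the calls in shifted/0.8ox to 12 instead of 4, of which 3 were higher. At an adjusted p under 0.05 shifted/0.8ox gave 7 calls, 1 of them higher. The 8 genes and the 4 calls were all among these. Leaving out genes that were not recounted gave 7 and 4. The ratios of these genes kept their direction and side of the threshold in all 108 repeats. For the 8 ratios 0.8ox/0.4ox, whose counts the rule used, this is a description only. Without scaling, the share of higher calls over all genes in 0.8ox/0.4ox was 68.0%, against 38.8%, and the median of all tested genes was 0.25. Genes at or below 1/8 of T0 after the shift numbered 37 to 54, a description only, since the rule used T0. No paired analysis was possible because the tables hold 1 merged value per condition, and no replicate could be left out. Depth limits the comparison of the oxygen levels to genes with at least 10 counts.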
